A study of Homo sapiens with 12 samples.

Results

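The transcripts described here encode 9 subunits of RNA polymerase III (Pol III), the nuclear enzyme that makes transfer RNAs and other short RNAs. They are POLR3A, POLR3B, POLR3C, POLR3D, POLR3E, POLR3F, POLR3G, POLR3GL and POLR3K, taken by gene symbol from the 26485 genes of both deposited expression tables, and all 9 were found in each table. The cells were HEK293T, an established line from human embryonic kidney in which the SV40 large T antigen is expressed. They were transfected with polyethylenimine, at 2 µg of plasmid and 6 µl of reagent per well, and polyA RNA was sequenced from 12 libraries in 4 groups of 3. The plasmids were named PX330-GFP-cas9-6T-sgRNA, PX330-GFP-noCas9-6T-sgRNA, PX330-GFP-cas9-luciferase-sgRNA and PX330-GFP-noCas9-luciferase-sgRNA. All groups therefore received a plasmid of the PX330-GFP type and a single guide RNA (sgRNA), and the groups differed in the sgRNA, named 6T or luciferase (a firefly gene with no human counterpart), and in Cas9, the bacterial nuclease that an sgRNA directs to DNA. The labels' protocols name no sort for transfected cells and no untransfected group. One table was deposited per sgRNA, with a mean for a condition A and a condition B. Which of A and B held Cas9 is not in the headers, and the tables may not follow the same order, so each difference is given as condition B against A, or as Luciferase against 6T.

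Pol III transcribes transfer RNAs, the 5S ribosomal RNA, U6 small nuclear RNA and other short untranslated RNAs. Plasmids of the PX330 type use a U6 promoter, so the sgRNA itself is a Pol III transcript, while Cas9 messenger RNA comes from RNA polymerase II. Pol III is also known to transcribe AT-rich DNA in the cytosol into RNA that the sensor RIG-I detects. Its core holds a catalytic pair of large subunits, a set of small subunits partly shared with RNA polymerases I and II, and subunits of its own that act in initiation, elongation and termination. Pol III transcripts mostly lack a polyA tail, so these libraries measure the messenger RNAs of the enzyme and not its products.

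One position in the enzyme, RPC7, is filled by either of a pair of paralogs, POLR3G or POLR3GL, and their coding sequences show how far reads from the pair can be told apart. POLR3G is known for high levels in stem cells and tumour lines, and POLR3GL is found more widely. The first 90 coding bases of each, from the GENCODE 29 transcripts on GRCh38, are printed 5′ to 3′, with capitals at the bases that are identical between the paralogs in a pairwise alignment.
POLR3G: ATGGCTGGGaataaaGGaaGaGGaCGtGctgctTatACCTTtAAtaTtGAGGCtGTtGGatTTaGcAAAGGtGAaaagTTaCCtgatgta
POLR3GL: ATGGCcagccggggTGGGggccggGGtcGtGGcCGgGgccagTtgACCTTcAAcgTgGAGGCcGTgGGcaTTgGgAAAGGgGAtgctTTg
Over the whole coding sequences, 669 bases for POLR3G and 654 for POLR3GL, 382 of 629 aligned bases were identical (60.7%). The longest identical run was 14 bases, TATGATGAAGAAGA, at coding bases 562 to 575 of POLR3G and 547 to 560 of POLR3GL, and no longer run was shared between the whole transcripts. The pair differed in base composition, with a GC content of 38.6% for the POLR3G coding sequence and 52.4% for that of POLR3GL.

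Reads assigned to genes numbered between 5881386 and 8294394 in 9 libraries and 19384946, 25073656 and 38145285 in the 3 Luciferase condition B libraries, so depth and group cannot be told apart there. Libraries are numbered by size factor within a group, as A1 to A3 and B1 to B3, and these numbers pair no libraries. All 6 genes taken as markers of HEK293T, named after their values were seen, were present. They ran from LHX1 at group means of 89.8 to 104 normalized reads to NEFM at 3064 to 4135. Among markers of other cell types, CD3E and HBB were at 0, PTPRC reached at most 0.416, ALB and PECAM1 lay between 0.978 and 7.92, and COL1A1 lay between 497 and 534. Normalized reads are read counts divided by a library's size factor. The replicates of every group differed by more than sampling noise, with a chi-square per degree of freedom between 1.80 and 23.7, so no library was counted as a copy of another.

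Groups were compared where they share an sgRNA or the letter of the condition, and overlap was judged between those pairs of groups. The catalytic pair showed its least spread in Luciferase condition B, the deepest group. POLR3A (chromosome 10, 77969251 to 78029545, minus strand, GRCh38) encodes the largest subunit, which forms the active site with the POLR3B product. Its normalized reads were 1504, 1645 and 1751 in 6T condition A, 1533, 1321 and 1539 in 6T condition B, 1690.1, 1791 and 1826 in Luciferase condition A, and 1757, 1691 and 1664 in Luciferase condition B. Every Luciferase condition B library lay above every 6T condition B library, and the other groups overlapped with their counterparts. POLR3B (chromosome 12, 106357658 to 106510198, plus strand) encodes the second largest subunit. Its normalized reads were 423, 433 and 365 in 6T condition A, 432, 408 and 376 in 6T condition B, 279, 376 and 358 in Luciferase condition A, and 365, 389 and 357 in Luciferase condition B. The Luciferase A1 library was the lowest of the 12, and all compared groups overlapped.

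POLR3K (chromosome 16, 46407 to 53628, minus strand) encodes a small subunit that acts in transcript cleavage, termination and reinitiation. Its normalized reads were 879.9, 976 and 919 in 6T condition A, 943, 846 and 1000.5 in 6T condition B, 978, 954 and 1077 in Luciferase condition A, and 1008, 903 and 882 in Luciferase condition B. The highest library was Luciferase A3, and the groups overlapped.

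POLR3D (RPC4; chromosome 8, 22245104 to 22254600, plus strand) and POLR3E (RPC5; chromosome 16, 22297375 to 22335103, plus strand) encode a heterodimer akin to TFIIF. POLR3D normalized reads were 554, 508 and 539 in 6T condition A, 481, 559 and 556 in 6T condition B, 653, 554 and 586 in Luciferase condition A, and 545, 511 and 520.4 in Luciferase condition B. Under the Luciferase sgRNA, every condition B library was below every condition A library, while the 6T groups overlapped. For POLR3E they were 1332, 1402 and 1399.9 in 6T condition A, 1424, 1237 and 1471 in 6T condition B, 1654, 1534 and 1418 in Luciferase condition A, and 1540.1, 1296 and 1285 in Luciferase condition B. All 3 Luciferase condition A libraries were above the 3 of 6T condition A, and the other groups overlapped.

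POLR3C (RPC3; chromosome 1, 145824088 to 145842505, plus strand), POLR3F (RPC6; chromosome 20, 18467127 to 18484643, plus strand) and RPC7 form the heterotrimer that acts in promoter opening, akin to TFIIE. POLR3C normalized reads were 768, 644 and 619.7 in 6T condition A, 573, 757 and 784 in 6T condition B, 734, 699 and 620.7 in Luciferase condition A, and 781, 745 and 701 in Luciferase condition B. All 4 groups overlapped, and 6T condition B held both the lowest library of the 12 (6T B1) and the highest (6T B3). For POLR3F they were 237, 238 and 212 in 6T condition A, 209, 197 and 211 in 6T condition B, 167, 169 and 192 in Luciferase condition A, and 193, 218 and 211 in Luciferase condition B. The 6T condition A libraries were all above both 6T condition B and Luciferase condition A, with 6T A3 at 211.9 just above 6T B3 at 211.3. The Luciferase condition A libraries were all below Luciferase condition B, with Luciferase A3 at 191.6 and Luciferase B1 at 192.9. About 2.44% of the POLR3F exon bases overlap DZANK1 on the opposite strand, and whether the authors counted by strand is not given in the sources used here.

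POLR3G (chromosome 5, 90471748 to 90514553, plus strand) had the fewest reads of the 9 in each group in total, from 60 in Luciferase A1 to 636 in Luciferase B3. In the 6T B1 library POLR3GL had fewer, 117 beside 125 for POLR3G. Relative to its mean, POLR3G had the largest spread of the 9 in every group but Luciferase condition A. Its normalized reads were 160.0, 211 and 158 in 6T condition A, 189.6, 117 and 119 in 6T condition B, 99.1, 121 and 110.3 in Luciferase condition A, and 119, 139 and 163 in Luciferase condition B. The 6T A2 and 6T B1 libraries were high, and only Luciferase condition A and 6T condition A did not overlap. POLR3GL (chromosome 1, 145964702 to 145978848, plus strand) had 174, 216 and 201 normalized reads in 6T condition A, 177, 225 and 203 in 6T condition B, 167, 182 and 144 in Luciferase condition A, and 167, 179 and 186 in Luciferase condition B, with overlap among all groups. In GENCODE 29, 13.7% of its exon bases overlap another gene on the same strand (AC243547.3). The annotation also lists processed copies of POLR3D, POLR3G and POLR3K, with which reads could be shared.

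**Figure D1:**
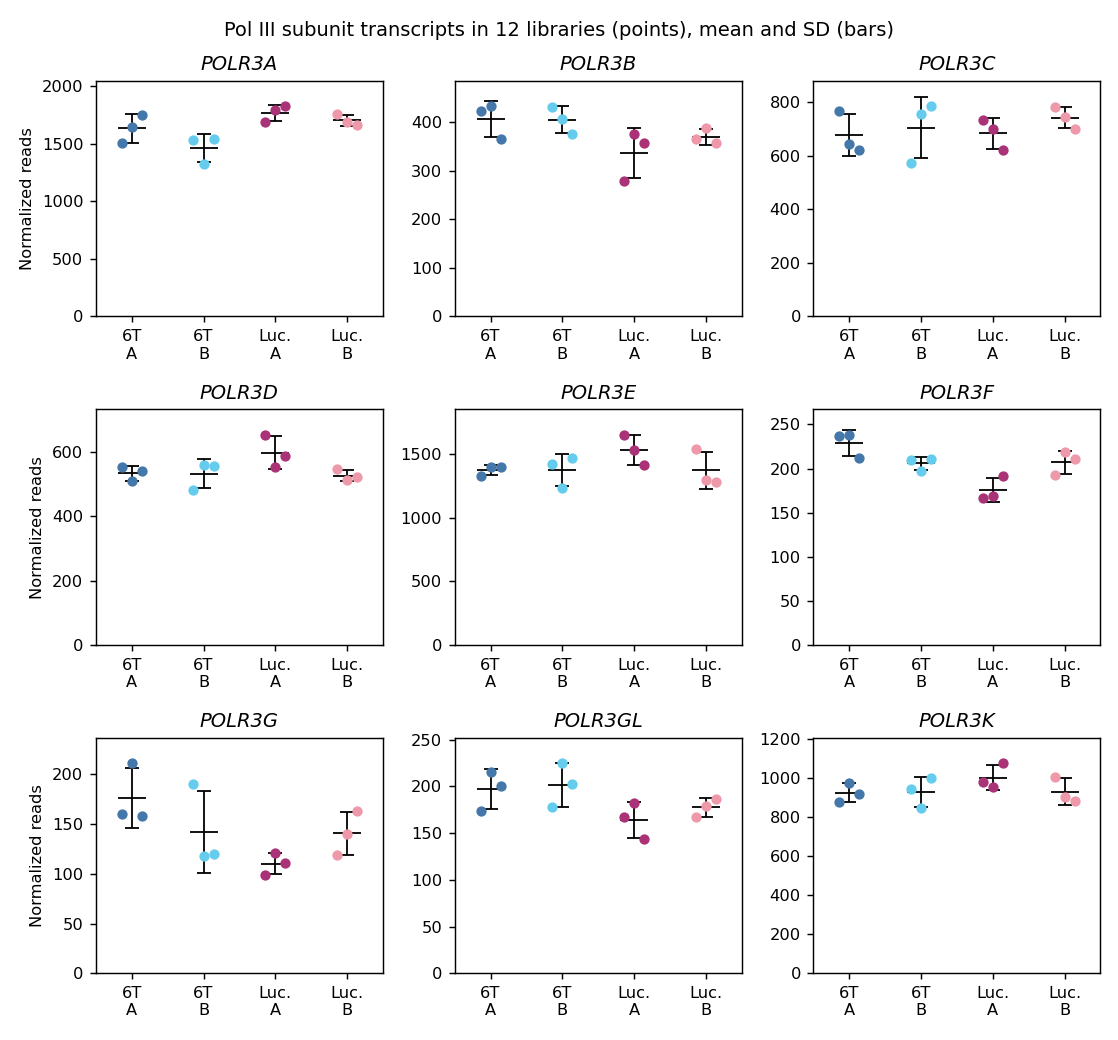
Normalized reads (vertical axes, from 0) of the 9 Pol III subunits in 12 libraries; points are libraries, horizontal bars the means and error bars the SD of 3 libraries, for the 6T and Luciferase (Luc.) sgRNAs in conditions A and B. Most groups overlap within a gene, and POLR3G shows the widest spread, from 99.1 in Luciferase A1 to 211 in 6T A2.

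The spread between libraries of a group, as the coefficient of variation (SD over mean), ran from 2.80% to 28.96% over the 36 combinations of gene and group, with a median of 8.09%. The highest was POLR3G in 6T condition B, at a mean of 142 ± 41.1 normalized reads (SD, n = 3). The lowest was POLR3A in Luciferase condition B, at 1704 ± 47.7 (SD, n = 3).

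Per kilobase of the principal transcript, the order of the subunits was nearly the same in the 4 groups. POLR3K was highest, at group means of 664 to 721 normalized reads per kilobase, and POLR3G was lowest, at 33.5 to 53.7. POLR3C (366 to 401) and POLR3E (372 to 415) followed POLR3K and overlapped each other in all 4 groups. POLR3A came next at 221 to 266, and POLR3GL at 141 to 173. POLR3D (95.6 to 109), POLR3B (79.0 to 95.3) and POLR3F (72.7 to 94.8) stood in that order in each group. POLR3D and POLR3B overlapped in both 6T groups and POLR3B and POLR3F in 3 groups, all but 6T condition B, so their order there lay within the spread. With the length of all merged exons in place of the principal transcript, a choice made after seeing the data, POLR3B and POLR3F changed places in 6T condition A and Luciferase condition B, and POLR3A and POLR3GL overlapped in 6T condition B. By the principal transcript, all other neighbours in the order were separate in every group.

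The first question the design poses is whether Cas9 with the 6T sgRNA goes with other levels of these transcripts. The means of POLR3B, POLR3D, POLR3E and POLR3K were close between the conditions, with deposited fold changes between 0.996 and 1.01. The largest difference was in POLR3G, with condition A at 176 ± 30.0 normalized reads and condition B at 142 ± 41.1 (SD, n = 3), followed by POLR3A at 1634 ± 124 and 1464 ± 124 and POLR3F at 229 ± 14.9 and 206 ± 7.81. POLR3C and POLR3GL had slightly higher means in condition B, 705 ± 115 against 677 ± 79.3 and 202 ± 23.7 against 197 ± 21.3. In the authors' deposited table, the log2 fold change of condition B over A was −0.31 for POLR3G (p = 0.150 by DESeq, adjusted p = 1), −0.16 for POLR3A and −0.15 for POLR3F, and between −0.01 and 0.06 for the other 6. None of the 9 subunits passed an adjusted p of 0.05 in that test, where 0.0416% of 19246 genes did (8 genes), and 0 of 9 had an unadjusted p under 0.05, beside 0.868% of all genes. In limma, which called 0% of 14032 genes and 2.36% (331) at an unadjusted p under 0.05, 0 of 9 passed in either way. The median log2 fold change of the 9 in the deposited table was −0.0044, with 3 above 0 and 6 below, beside −0.03 over all genes with a mean of 10 or more. POLR3F was the 1 subunit of 9 whose groups did not overlap (7.89% of 14032 genes). In a bulk sample, fewer cells with a transcript and less of it per cell cannot be told apart.

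The same question was put with the Luciferase sgRNA. POLR3G and POLR3F had higher means in condition B, at 140.5 ± 21.7 against 110.0 ± 10.8 and 207 ± 13.0 against 176 ± 13.8 normalized reads (SD, n = 3). POLR3D and POLR3E had lower ones, at 525 ± 17.2 against 597 ± 50.5 and 1374 ± 144 against 1535 ± 118. The authors' deposited log2 fold changes were 0.35 for POLR3G (p = 0.195 by DESeq, adjusted p = 1), 0.24 for POLR3F, 0.13 for POLR3B, 0.12 for POLR3C, 0.11 for POLR3GL, −0.05 for POLR3A, −0.11 for POLR3K, −0.16 for POLR3E and −0.18 for POLR3D. No subunit passed an adjusted p of 0.05, and the authors' table called 0% of its 20194 genes, with 246 at an unadjusted p under 0.05 (1.22%) and none of the 9 among them. limma also called 0% of 13970 genes, with 1344 at an unadjusted p under 0.05 (9.62%), of which none was a subunit. The median over the 9 was 0.11, with 5 above 0 and 4 below, beside −0.0046 over all genes with a mean of 10 or more. The groups did not overlap for POLR3F, higher in condition B, and POLR3D, lower, which is 2 of 9 beside 15.9% of 13970 genes. With a limma fit corrected for GC content, the differences were −0.11 for POLR3G, −0.0058 for POLR3F and −0.014 for POLR3B, opposite in sign to the uncorrected ones. The median over the 9 in that fit was −0.045, beside −0.0026 over all genes.

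The limma intervals give the sizes of change these libraries leave room for. Under the 6T sgRNA the 95% intervals of the 9 log2 differences had half-widths from 0.21 (POLR3E) to 0.48 (POLR3G), and under the Luciferase sgRNA from 0.17 (POLR3A) to 0.36 (POLR3G). All 18 intervals held 0 and stayed within a 2-fold change in either direction, and the outermost bounds were −0.81 and 0.70, both of POLR3G. With GC correction the POLR3K interval under the Luciferase sgRNA did not hold 0, at a log2 difference of −0.22 (unadjusted p = 0.0465, adjusted p = 0.602 by limma) in place of −0.11, and the other 17 did. Among all genes, 1084 of 13216 had an unadjusted p under 0.05 by limma in that fit. Under 6T the count with GC correction was 252 of 13281. Without GC correction, only POLR3G under the 6T sgRNA, and POLR3F and POLR3G under the Luciferase sgRNA, had an interval that reached past 0.5 on the log2 scale. A p that misses the threshold does not show that the levels were alike within these bounds.

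**Figure D2:**
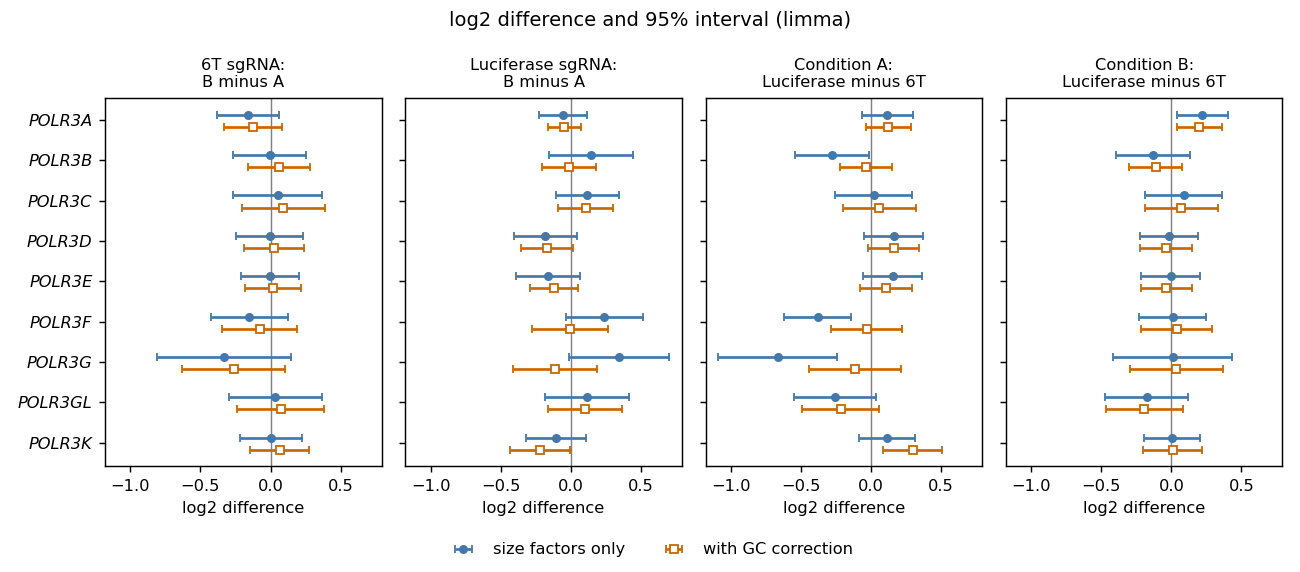
Differences on the log2(normalized reads + 1) scale (horizontal axes) with 95% intervals from limma, for the 9 subunits in 4 comparisons; filled circles use size factors only and open squares add a correction for GC content. In condition A without the correction, the intervals of POLR3B, POLR3F and POLR3G lie below 0, and with it they include 0. The POLR3K interval there includes 0 without the correction and lies above 0 with it.

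The sgRNAs were then compared within a condition letter, which the authors' tables do not do but their shared scale allows. These comparisons use the same libraries as the ones above and are not independent of them. Since the letters may stand for Cas9 in one table and no Cas9 in the other, a difference between sgRNAs and one in Cas9 cannot be told apart here. In condition A, POLR3G was at 110.0 ± 10.8 normalized reads with the Luciferase sgRNA and 176 ± 30.0 with 6T (SD, n = 3), POLR3F at 176 ± 13.8 and 229 ± 14.9, and POLR3B at 338 ± 51.3 and 407 ± 36.8. The limma log2 differences were −0.67 for POLR3G (SE 0.197, adjusted p = 0.0700), −0.38 for POLR3F (adjusted p = 0.0682) and −0.28 for POLR3B (adjusted p = 0.144). They were −0.26 for POLR3GL and between 0.02 and 0.16 for POLR3A, POLR3C, POLR3D, POLR3E and POLR3K. No subunit passed the adjusted threshold, which 0.0645% of 13961 genes passed (9 genes, 8 higher and 1 lower with Luciferase). That count of genes ran from 0, without 6T A1, 6T A3 or Luciferase A1, to 1019, without Luciferase A2, when 1 library was left out, and was 94 with a minimum mean of 50. Scaling by library totals in place of size factors called 287 genes, 178 higher and 109 lower, with 0 of 9 subunits among them. At an unadjusted p under 0.05, 3 of 9 subunits were lower and 0 higher with Luciferase. Among all genes 18.7% were lower at that threshold and 31.4% differed in either direction, so 3 of 9 in either direction lay near the background. The groups did not overlap for POLR3E, POLR3F and POLR3G, 3 of 9 beside 32.9%. The median over the 9 was 0.02, and −0.01 over all genes.

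GC content moved with these differences. Across the 13210 genes fitted in all 12 libraries with a known GC content, the log2 difference between sgRNAs in condition A followed the GC content of the principal transcript with a Spearman rho of 0.74, and over the 9 subunits with 0.93. For condition B against A, rho was 0.37 over all genes and 0.32 over the 9 under 6T, and −0.70 and −0.87 under Luciferase. For the difference between sgRNAs in the change from A to B, it was −0.69 and −0.83. These are correlations across genes of the same libraries, given as a description. The library values behind them, each gene's level less its mean over the 12, ran from a rho of −0.64 in 6T A2 to 0.75 in Luciferase A1. They also differed widely within a group. The 3 values were 0.59, −0.39 and −0.58 in Luciferase condition B, and −0.43, −0.64 and −0.04 in 6T condition A. POLR3G, with a GC content of 34.3%, stood at the 0.522 percentile of all fitted genes, POLR3F (41.7%) at the 20.7 and POLR3B (44.0%) at the 30.3. POLR3K had 45.3%, and POLR3GL, POLR3C, POLR3A, POLR3D and POLR3E lay between 48.5% and 51.3%, close to the median of 49.6%. Genes with 30% to 35% GC had a median log2 difference of −0.51 and a lower quartile of −0.72, and POLR3G at −0.67 lay between these.

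After a spline correction for GC content within each library, the condition A differences were −0.12 for POLR3G, −0.03 for POLR3F and −0.04 for POLR3B, with unadjusted p of 0.465, 0.788 and 0.676 by limma. POLR3GL, whose GC content was near the median, kept a difference of −0.22 (unadjusted p = 0.111 by limma). POLR3K moved away from 0, from 0.12 to 0.30 (unadjusted p = 0.00887, adjusted p = 0.184 by limma). None of the 9 passed the adjusted threshold with the correction. The share of all genes with an unadjusted p under 0.05 in the corrected fit is not given here. The correction was fitted to these same libraries and takes out any difference that follows GC content, whatever its source. Smaller differences after it therefore do not show where the trend came from. The part of fragment selection, amplification or any other step in the GC trend was not tested.

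**Figure D3:**
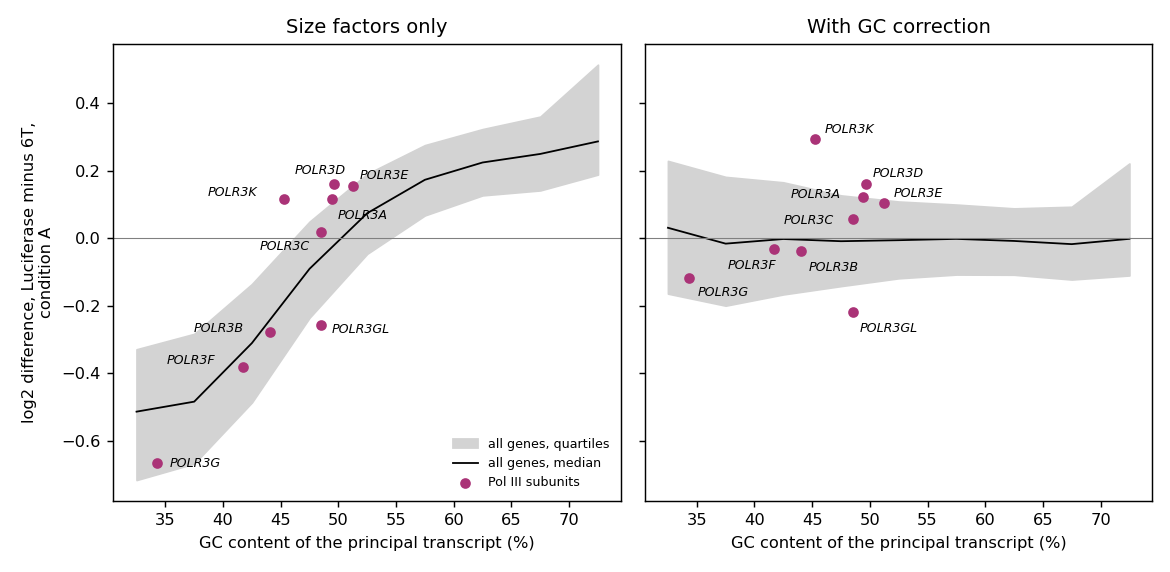
Log2 difference between the Luciferase and 6T sgRNAs in condition A (vertical axes) against the GC content of the principal transcript (horizontal axes, percent), without (left) and with (right) GC correction; points are the 9 subunits, the line is the median and the band the quartiles of all genes in steps of 5% GC. On the left POLR3G at −0.67 and POLR3F at −0.38 lie inside the band of genes of like GC content, and on the right they lie at −0.12 and −0.03.

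In condition B the 9 log2 differences between the sgRNAs lay between −0.18 and 0.22. POLR3A was at 1704 ± 47.7 normalized reads with Luciferase and 1464 ± 124 with 6T (SD, n = 3), a limma log2 difference of 0.22 (SE 0.0851, unadjusted p = 0.0215, adjusted p = 0.898), and its groups did not overlap. It was the only subunit of 9 with an unadjusted p under 0.05 or with groups apart, beside 5.41% and 12.9% of all genes. limma called 0% of 13961 genes in this comparison, with 755 at an unadjusted p under 0.05, and no subunit. With the GC correction the POLR3A difference was 0.20 (unadjusted p = 0.0173, adjusted p = 0.478 by limma), and the share of all genes at that threshold with the correction is not given here. The other 8 log2 differences lay between −0.18 (POLR3GL) and 0.09 (POLR3C), and those of POLR3D, POLR3E, POLR3F, POLR3G and POLR3K were within 0.02 of 0. The rho with GC content was 0.10 over all genes and −0.07 over the 9.

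Whether the change from A to B differed between the sgRNAs was tested directly. POLR3G had a difference of 0.68 (95% interval 0.08 to 1.28) and POLR3F of 0.39 (0.05 to 0.73), both with an adjusted p of 0.486 by limma. The other 7 lay between −0.17 (POLR3D) and 0.15 (POLR3B). limma called 0% of 13961 genes and none of the subunits, and 2 of 9 subunits had an unadjusted p under 0.05 beside 9.38% of all genes (1309). With GC correction the values were 0.15 for POLR3G and 0.07 for POLR3F, and −0.29 for POLR3K (unadjusted p = 0.0566, adjusted p = 0.904 by limma). Since the order of A and B may differ between the tables, a difference here need not be one in the response to Cas9.

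The RPC7 paralogs can be set against each other within a library, where the size factor cancels. Reads of POLR3G per read of POLR3GL were 0.920, 0.977 and 0.787 in 6T condition A, 1.07, 0.522 and 0.588 in 6T condition B, 0.594, 0.661 and 0.765 in Luciferase condition A, and 0.714, 0.777 and 0.874 in Luciferase condition B. The 6T condition A ratios were all above those of Luciferase condition A, and all other groups overlapped. Means were 0.895 ± 0.0977, 0.726 ± 0.298, 0.673 ± 0.0860 and 0.788 ± 0.0802 (SD, n = 3), in that order. Per kilobase of principal transcript the means were 0.317, 0.258, 0.239 and 0.280, so POLR3GL was the more abundant paralog per annotated length in each group. That rests on annotated lengths of 3285 bases for POLR3G and 1165 for POLR3GL, while their coding lengths are 669 and 654. Which transcripts these cells used was not tested. The paralogs differ in GC content, 34.3% and 48.5% over the transcript, and the part of that gap in the ratio was not tested.

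**Figure D4:**
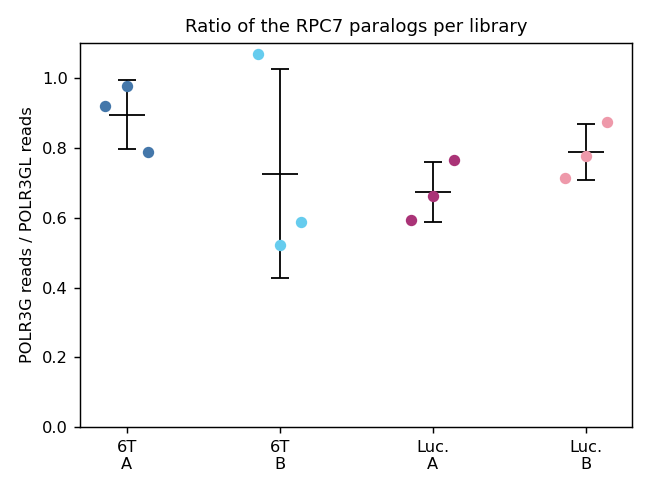
Ratio of POLR3G to POLR3GL reads (vertical axis, from 0) in each of the 12 libraries (points), with the mean and SD of 3 libraries per group (bars). The 6T condition B group spans 0.522 to 1.07, more than any other group.

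At levels not corrected for GC content, the 9 transcripts did not vary as a block over the libraries. Whether they do so after such a correction was not tested. Among their 36 pairs, the Pearson correlation of log2 levels over the 12 libraries had a median of −0.21, with 14 pairs above 0, from −0.82 for POLR3D with POLR3G to 0.77 for POLR3F with POLR3G. The highest pairs were between transcripts of lower GC content (POLR3F with POLR3B at 0.71 and POLR3G with POLR3B at 0.69) and between POLR3K and POLR3E (0.69). All points share libraries and their GC trends, and the values are descriptive. The mean log2 level of the 9 spanned 0.20 over the 12 libraries, from 8.86 in Luciferase A1 to 9.06 in 6T A2. The median r of other genes with that mean level was 0.04. Of 11601 other genes with a mean of 50 or more, those whose pattern was most like it were CHEK2 (r = 0.96), HMGN3 (0.91), NGLY1 (0.91), RBM39 (0.91) and UBE2G1 (0.89), over 12 libraries. Their GC contents lay between 39.8% and 45.1%.

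The further genes of the Pol III pathway were read from 8 lists, and none of their genes passed the adjusted threshold in any of the 5 comparisons, by DESeq or limma. Without adjustment, 1 gene had a p under 0.05 under each sgRNA in the authors' deposited tables, SNAPC5 under 6T and XPOT under Luciferase, which is 1 of 59 list genes beside 0.868% and 1.22% of all genes. In limma, 21 of 58 list genes had an unadjusted p under 0.05 between the sgRNAs in condition A, 10 higher and 11 lower with Luciferase, beside 31.4% of all genes. In condition B there were 2 of 58, beside 5.41%. The list medians of the log2 difference lay between −0.12 and −0.01 for condition B over A under 6T, between −0.06 and 0.09 under Luciferase, and between −0.10 and 0.18 for Luciferase over 6T in condition A, where the medians of all genes were −0.03, −0.0046 and −0.01. The other core subunits of the enzyme numbered 9, most of them shared with RNA polymerases I or II. Among them POLR2K, a small subunit common to all 3 nuclear polymerases, was at 131 ± 39.9 in Luciferase condition A and 278 ± 148 in 6T condition A (SD, n = 3), with a log2 difference of −1.01 (adjusted p = 0.100 by limma) and −0.50 after GC correction. POLR1D, shared with RNA polymerase I, was at 1243 ± 37.2 and 1436 ± 72.6, a log2 difference of −0.21 that was −0.38 after correction. Of these 9 core subunits, 6 lay above 0 and 3 below in that comparison before correction, with a median of 0.11.

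TFIIIB, which places Pol III at its promoters, was read from 4 genes. BRF1, used at transfer RNA genes, was at 834 ± 55.1 normalized reads in Luciferase condition A and 694 ± 40.4 in 6T condition A, a log2 difference of 0.26 (adjusted p = 0.104 by limma) and 0.02 after GC correction. BRF2, its counterpart at U6-type promoters, was at 335 ± 12.4 and 281 ± 24.4, a log2 difference of 0.26 (adjusted p = 0.122 by limma) and 0.16 after correction. BDP1 went the other way, with means of 318 and 500, a log2 difference of −0.70 (adjusted p = 0.136 by limma) and −0.25 after correction. TBP had 0.11, and 0.22 after correction. Of the 7 genes of TFIIIA and TFIIIC, which bind promoters within the gene, GTF3A and GTF3C3 had log2 differences of −0.25 and −0.51 between the sgRNAs in condition A, and −0.16 and −0.08 after correction. GTF3C1 and GTF3C5 went the other way, at 0.29 and 0.28, and 0.12 and 0.08 after correction. Of the 7, 2 lay above 0 and 5 below before correction, with a median of −0.06. Among genes for U6-type promoters (7 in the list), SNAPC5 was at 92.3 ± 24.6 in 6T condition B and 59.9 ± 4.32 in 6T condition A (SD, n = 3). Its log2 fold change in the authors' deposited table was 0.63 (p = 0.00983 by DESeq, adjusted p = 1). No other gene of that list had an unadjusted p under 0.05 there. SNAPC4, a DNA-binding subunit of SNAPc, was at 1143 ± 25.5 and 947 ± 112 in Luciferase and 6T condition A, a log2 difference of 0.28 and 0.04 after correction.

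Of 14 genes for the repressor, the chaperones and the processing of Pol III transcripts, TSEN15, a subunit of the transfer RNA splicing endonuclease, came nearest to the threshold. It was at 341 ± 17.6 normalized reads in Luciferase condition A and 497 ± 34.0 in 6T condition A, a log2 difference of −0.54 (adjusted p = 0.0522 by limma) and −0.16 after GC correction. XPOT, the exporter of transfer RNAs, was at 1216 ± 203 and 1944 ± 390, a log2 difference of −0.67 (adjusted p = 0.0604 by limma) and −0.28 after correction. Before correction, 5 of the 14 lay above 0 and 9 below. For RNA polymerases I and II, POLR1B, TWISTNB and POLR2B had log2 differences of −0.30, −0.63 and −0.62 in the same comparison, and −0.21, −0.14 and −0.28 after correction. POLR2A, the largest subunit of RNA polymerase II, had 0.23, and 0.08 after correction. Before correction, 3 of the 6 genes particular to RNA polymerase I lay above 0 and 3 below. For the 7 particular to RNA polymerase II, 4 lay above 0 and 3 below. Downstream of Pol III as a DNA sensor, IFNB1, the interferon gene, had group means between 0 and 0.551 normalized reads. The kinase TBK1 was at 178 ± 48.5 in Luciferase condition A and 274 ± 67.7 in 6T condition A, a log2 difference of −0.63 (adjusted p = 0.0916 by limma) and −0.19 after correction, and IRF3, the factor it acts on, had 0.10, and −0.13 after correction.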

How the data were processed

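Per the submitters' processing notes, the authors used STAR for alignment to hg38, HTSeq for counts per gene and DESeq for the test, with no version named. The annotation and the use of strand are not given in the sources used here. Each sgRNA has 1 deposited table. Its signal values, as the authors deposited them, are read counts divided by a size factor and averaged over all 6 libraries or over the 3 of condition A or B. The authors' fold change is a ratio, B over A, deposited also on the log2 scale. Its p-value columns are from the authors' DESeq test, unadjusted and adjusted. Rows that name no gene were left out. They held 17.4% to 17.8% (no feature) and 19.4% to 19.9% (not uniquely aligned) of the counts under 6T and 16.3% to 17.2% and 22.6% to 24.6% under Luciferase. No column of other samples was present.

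Each deposited mean is a sum of whole reads times 3 steps, 1 per library, and the whole reads and size factors were recovered from the means. Exactly 1 solution fitted the mean for 99.91%, 99.91%, 99.92% and 99.41% of genes above 0 in 6T A, 6T B, Luciferase A and Luciferase B, including all 9 subunits. The rest, counted at their mean, held 4.70% to 16.3% of a library's reads. Recovered size factors lay within 0.0998% of median-of-ratios factors over the 12 libraries and up to 36.7% away from those within 1 table, so both tables share a scale. On simulated means, 100% of the single solutions found were right. These means were drawn around genes that already had a single solution, and genes with the highest means were left out. The rate therefore need not hold for those genes. On simulated reads with 200 changed genes, limma recovered 63% to 69.5% of log2 changes of 0.5 between groups. It recovered 23% of them in the difference between sgRNAs. For log2 changes of 1 it recovered 88% to 95%, and false calls numbered 1 to 17 per run. The simulation gave all genes the same spread beyond sampling noise and no GC trend. These rates therefore need not hold for the real libraries.

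The authors' DESeq test is the main test within an sgRNA. The other comparisons used limma (3.58.1, R 4.3.3) with a mean-variance trend on log2(normalized reads + 1), over the 12 libraries in 4 groups, for genes with a mean of 10 or more, two-sided, with Benjamini-Hochberg adjustment over all genes fitted and a threshold of 0.05. This scale understates the change of low genes. The labels do not say that replicates were separate cultures, so p-values rest on a spread among samples that may be technical. Alternatives were limma within an sgRNA, a pseudocount of 5, a minimum mean of 50 or none, library totals in place of size factors, a spline correction for GC content, leaving out each library and, added after seeing the data, voom weights and merged exon length. GC content, lengths and coordinates came from GENCODE 29 (GRCh38), and sequences were read from its transcripts. The named genes were the 9 subunits, the called genes of each further list or else its 2 genes with the smallest p in any comparison, and the 5 other genes most correlated with the subunits' mean. IFNB1, BDP1, TBP, GTF3C1, GTF3C5 and the marker genes were named after their values were seen. The members and lists were chosen with earlier results of these data known.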

Additional observations from a re-analysis of the deposited data

How the results depend on the processing

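No subunit was called under any of the alternatives run, with or without any 1 library. The POLR3G difference between conditions under 6T, −0.33 in limma, ran from −0.56 to −0.20 when 1 library was left out. The −0.56 was without 6T B1 (unadjusted p = 0.0142, adjusted p = 0.787 by limma). In that fit 821 of 14032 genes had an unadjusted p under 0.05. No paired analysis was possible because the deposited means carry no replicate number. Under the 6T sgRNA, the 8 genes called between conditions by the authors' DESeq test became 0 with limma, which also gave 0 with a pseudocount of 5, a minimum mean of 50, no minimum, library totals in place of size factors, GC correction or voom weights, and 0 to 0 when each library was left out. Under the Luciferase sgRNA, GC correction gave 4 genes in place of 0. Between sgRNAs in condition A, the 9 genes became 14 with a pseudocount of 5, 94 with a minimum mean of 50, 287 with library totals and 4 with voom weights. Leaving out each library gave 0 to 1019, with 1019 without Luciferase A2 0 without Luciferase A1, 6T A1 or 6T A3, and 2 to 5 without 6T A2, Luciferase A3, Luciferase B2 or Luciferase B3. In condition B, GC correction gave 1 gene, and leaving out each library 0 to 1, the 1 without 6T B3. With GC correction 7 of 45 log2 differences of single subunits changed sign. These were POLR3F (−0.0058), POLR3G (−0.11) and POLR3B (−0.014) between conditions under Luciferase, POLR3B (0.061), POLR3D (0.025) and POLR3E (0.018) under 6T, which were near 0 without it, and POLR3B (−0.076) in the difference between sgRNAs. The cause of these changes was not tested. Of 729 values of single subunits under an alternative, 53 changed sign, 719 moved by less than 1 SD of the replicates, 7 moved further with the same sign, and 3 moved further with a change of sign. Reads per library limit the precision of POLR3G, which had 60 reads in Luciferase A1.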
